A study of Mus musculus with 6 samples.

Results

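Heterochromatin marked by methylation of histone H3 at lysine 9 is read and extended by a small set of proteins, and the transcripts of 9 of their genes are described here in cultured mouse chondrocytes. The 9 genes were chosen by symbol from a table of 35976 genes. They are the HP1 genes Cbx1, Cbx3 and Cbx5, the corepressor gene Trim28, the methyltransferase cofactor gene Atf7ip, the HUSH complex genes Mphosph8, Fam208a (also called Tasor) and Pphln1, and the HUSH effector gene Morc2a. All 9 were found in the table and all 9 passed the filter on low counts, with raw totals over the 6 libraries from 3287 (Fam208a) to 29358 (Trim28).

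The cells were chondrocytes of embryonic day 18.5 from hind limb cartilage of the strain C57BL/6 x 129S4/SvJae, expanded on plastic through 16 population doublings. Both groups received doxycycline at 2 µg/ml, which induced a transgene for histone H3.3. In the H3K9M group (replicates 1, 3 and 5) this H3.3 carried methionine instead of lysine 9, and the label calls H3K9 methylation suppressed. In the H3WT group (replicates 1, 2 and 4) it was wild-type H3.3, so the controls carried an induced transgene too. The comparison addressed how transcripts differ when methylation of lysine 9 is suppressed during expansion. The promoter of the transgene is not given in the sources used here, and nothing says that the replicates came from separate animals, so p-values measure the spread between these samples only.

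As background, HP1 proteins bind methylated lysine 9 through a chromodomain and bring further silencing factors through a chromoshadow domain. TRIM28 is recruited to DNA by KRAB zinc-finger proteins and in turn recruits HP1 and the methyltransferase SETDB1, whose nuclear stability depends on ATF7IP. The HUSH complex joins MPP8 (from Mphosph8), a chromodomain reader of methylated lysine 9, to TASOR (from Fam208a) and periphilin (from Pphln1), and it works with SETDB1 and the ATPase MORC2 to silence young retroelements and integrated transgenes.

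Total counts per library ran from 15113675 to 19606082. The first principal component of log2 CPM (35.5% of the variance) did not separate the groups. On it H3WT replicate 2 (49.1) lay with H3K9M replicate 3 (51), opposite H3WT replicates 1 and 4 (-56.2 and -51.5). H3K9M replicates 1 and 5 lay between (-2.8 and 10.4). On the second component (28.8%) H3WT replicate 2 stood apart (-71.5, the other 5 libraries between -14.4 and 39.8). The chondrocyte markers Sox9, Col2a1, Acan, Col9a1, Col11a1, Matn1, Matn3 and Comp were present in every library (8 of 8), with a summed level of 7246 to 11310 CPM in H3K9M and 7136 to 18550 CPM in H3WT. All 8 had a log2 fold change below 0 (median -0.61), as did the 4 tested of 5 osteoblast markers (median -1.25), of which Ibsp (-2.13) was lower in all H3K9M libraries, and none of these 12 passed the adjusted threshold. The 5 fibroblast markers Col1a1, Col3a1, Pdgfra, Dcn and Thy1 summed to 20780, 8039 and 15850 CPM in H3K9M replicates 1, 3 and 5. In H3WT replicates 1, 2 and 4 they summed to 24280, 6514 and 16680 CPM. These sums were above those of the chondrocyte markers in every library except H3WT replicate 2 (median log2 fold change -0.09). Of 5 endothelial and 7 macrophage and blood markers 0 and 2 passed the filter on low counts, and Ptprc and Cdh5 had no read. The 2 were Csf1r, at most 3.71 CPM in any library, and Cd68. Cd68 had 2.61, 12.8 and 4.75 CPM in H3K9M replicates 1, 3 and 5 against 0.618, 3.37 and 2 CPM in H3WT replicates 1, 2 and 4. Its log2 fold change was 1.75 (adjusted p 0.411, edgeR) and that of Csf1r 0.72 (adjusted p 0.858), with overlapping groups in both. The 6 skeletal muscle markers summed to 138.1, 197.6 and 19.2 CPM in H3K9M replicates 1, 3 and 5. In H3WT they summed to 11.1 to 31.1 CPM, of which Acta1, whose groups overlapped, made up 26.2 and 24 CPM in replicates 1 and 4. Myf5 was at 0 in all libraries and Myod1 highest in H3K9M replicate 3 (57 CPM). Myod1 and Des, the other 2 that passed the filter on low counts, lay higher in all H3K9M libraries, as 10.7% of tested genes did. Their log2 fold changes were 6.2 and 3.8 (adjusted p 0.244 and 0.255, edgeR). The part of these muscle, cartilage, bone, fibroblast and macrophage transcripts in the results below was not tested.

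The stretch of DNA before the start of 1 gene from each of the 3 systems is shown, as examples of the start regions whose CG dinucleotides, motifs and neighbours were counted. The sequences are from RefSeq on GRCm38.p6 (the mm10 build that the submitters' processing notes name), 5′ to 3′ on the gene's strand, and end just before the gene's RefSeq span, so that the stretches of Cbx5 and Mphosph8 are shorter than 250 bases; GENCODE M21 also has a Trim28 model that starts farther upstream. They are Cbx5 at chr15:103239905-103240102 on the minus strand, Trim28 at chr7:13023902-13024151 on the plus strand and Mphosph8 at chr14:56667998-56668234 on the plus strand. Capitals mark the GC box (GGGCGG) and the CCAAT box (CCAAT) on either strand.
Cbx5: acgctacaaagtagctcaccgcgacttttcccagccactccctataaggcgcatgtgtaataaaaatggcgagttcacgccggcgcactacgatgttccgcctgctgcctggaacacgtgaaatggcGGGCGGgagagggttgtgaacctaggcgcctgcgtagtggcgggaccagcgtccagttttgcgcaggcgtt
Trim28: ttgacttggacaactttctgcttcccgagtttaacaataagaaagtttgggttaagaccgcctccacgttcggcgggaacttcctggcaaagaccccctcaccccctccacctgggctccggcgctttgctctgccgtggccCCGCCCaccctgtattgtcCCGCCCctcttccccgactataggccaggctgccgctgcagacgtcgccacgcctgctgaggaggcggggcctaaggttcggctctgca
Mphosph8: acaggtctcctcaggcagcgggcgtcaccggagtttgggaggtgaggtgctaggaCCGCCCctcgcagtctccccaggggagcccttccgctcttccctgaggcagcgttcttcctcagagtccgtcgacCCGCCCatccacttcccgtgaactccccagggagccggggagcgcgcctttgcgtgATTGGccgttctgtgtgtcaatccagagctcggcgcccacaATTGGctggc

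The table of 300-base start windows held all 9 genes. Taking for each gene its window with the most CG dinucleotides, the members held 22 (Cbx1) to 53 (Pphln1), with a median of 29 against 22 over 10172 tested genes with a window. In the 250 bases before the start, a GC box was found in 8 of 9 members and in 62.7% of those genes, and a CCAAT box in 5 of 9 and 35.9%. An E2F core (TTTGGCG) was found in Cbx3 and Fam208a (2 of 9, against 2.1%) and an NRF1 motif in Cbx5 (1 of 9, against 8.6%). The shortened stretch printed for Cbx5 holds 1 of its 2 counted GC boxes and neither its NRF1 motif nor its CCAAT box. An ETS core (CCGGAAG) and a TATA box (TATAAA) were found in 0 of 9, against 14.5% and 5.6%. Both strands were searched, no motifs overlapped in the printed stretches, and a match of letters is a description only.

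Across the transcriptome, 0 of 13761 tested genes (0%) passed an adjusted p of 0.05 (edgeR quasi-likelihood test, Benjamini-Hochberg adjustment). An unadjusted p under 0.05 was reached by 1677 of them (12.2%, with 6.42% higher and 5.77% lower in H3K9M). At the adjusted threshold limma-voom called 0 genes and DESeq2 390, and edgeR called 36 when every gene with a count was tested, 91 without H3WT replicate 2 and 2 without H3K9M replicate 3. None of the 9 silencing genes passed the adjusted threshold and 0 of 9 had an unadjusted p under 0.05. The 3 H3K9M values and the 3 H3WT values overlapped in all 9 members, whereas they did not overlap in 19.4% of all tested genes. Every member's log2 fold change lay between -0.23 and 0.18, a size under 0.25 that 50.1% of tested genes also had. In these bulk samples, fewer cells of a type and less RNA per cell cannot be told apart.

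**Figure D1:**
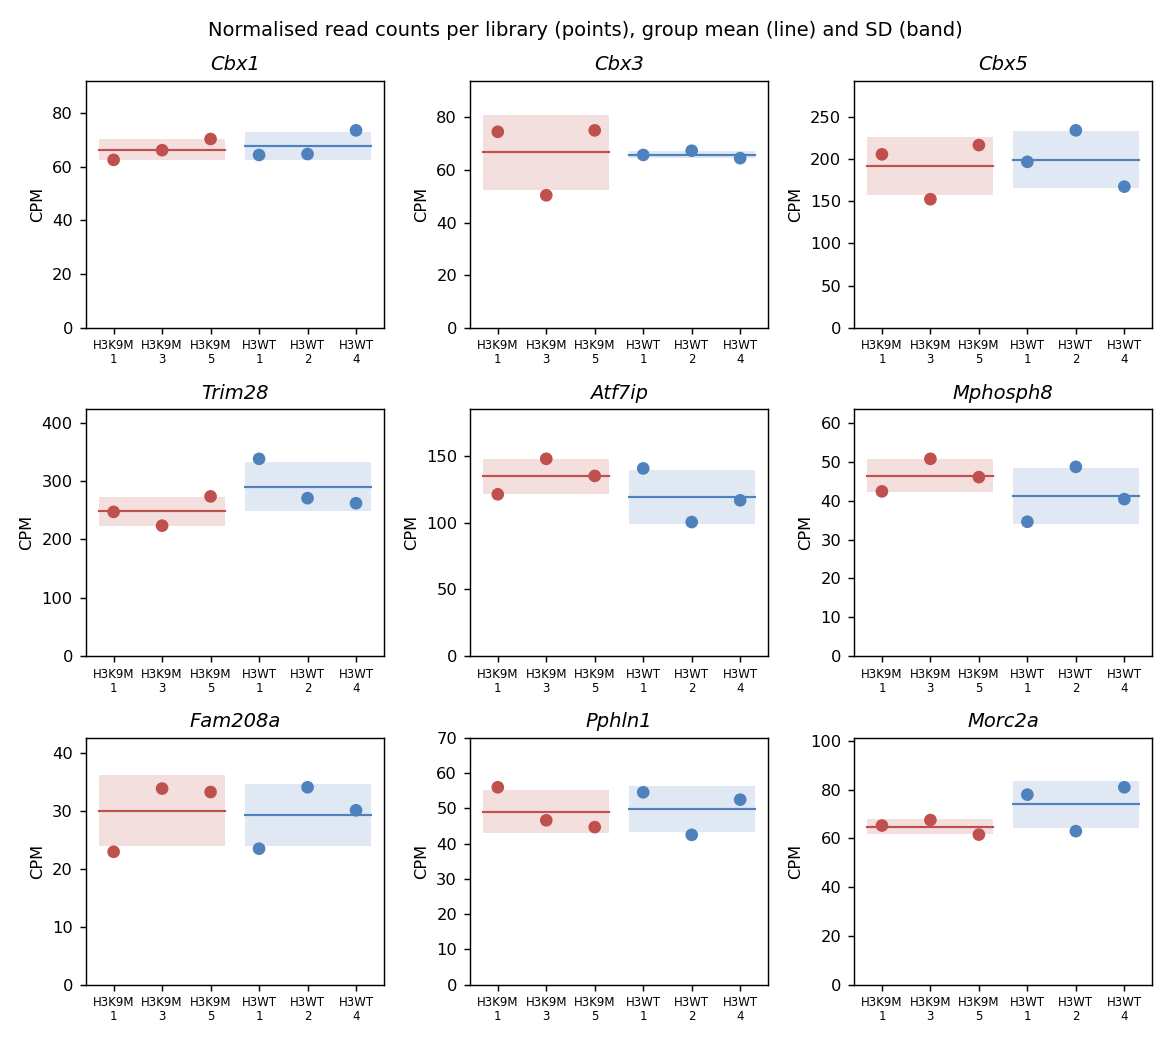
Normalised read counts (CPM, vertical axes starting at 0) of the 9 silencing genes in each of the 6 libraries (horizontal axis: group and replicate), with the group mean as a line and 1 SD as a band. In every panel the H3K9M points (red) and the H3WT points (blue) overlap.

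The HP1 genes encode HP1 beta (Cbx1), HP1 gamma (Cbx3) and HP1 alpha (Cbx5). CPM is the read count scaled to a common library size after TMM normalisation. Cbx1 had 62.6, 66.2 and 70.4 CPM in H3K9M replicates 1, 3 and 5 and 64.4, 64.8 and 73.6 CPM in H3WT replicates 1, 2 and 4. No library stood out, and the highest was only 1.18 times the lowest. Cbx1 had a log2 fold change of -0.03 (SE 0.12, 95% interval -0.30 to 0.25, adjusted p 0.958 by edgeR).

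Cbx3 had 74.6, 50.4 and 75.1 CPM in H3K9M against 65.7, 67.4 and 64.5 CPM in H3WT. The H3WT libraries lay close together (65.9 ± 1.43, SD, n = 3), while H3K9M replicate 3 was below all others and the other 2 H3K9M libraries above all H3WT libraries (66.7 ± 14.1). The resulting log2 fold change was 0.02 (SE 0.17, 95% interval -0.37 to 0.41, adjusted p 0.981). Leaving out H3K9M replicate 3 gave 0.19, and the offset for GC content and transcript length, an alternative scaling, gave -0.26 (adjusted p 0.716). Processed copies of Cbx3 are frequent in the mouse genome. In GENCODE M21, 13 other genes had a stretch of 200 bases or longer that matched it at 90% identity or more. All were processed pseudogenes except the protein-coding Als2cr12 and the noncoding Gm49164. Als2cr12, the only one of the 13 in the count table, held 1 read. Whether reads of the others were counted for Cbx3 was not tested.

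Cbx5 had 205.9, 152.6 and 216.9 CPM in H3K9M against 197, 234.4 and 167.5 CPM in H3WT. Each group held 1 low library, H3K9M replicate 3 and H3WT replicate 4. For Cbx5 the log2 fold change was -0.06 (SE 0.18, 95% interval -0.47 to 0.35, adjusted p 0.931). It turned to 0.08 when H3WT replicate 2 was left out and to 0.09 when H3K9M replicate 3 was. Those low libraries were also the lowest in 10 proliferation genes (Mki67, Top2a, Cdk1, Ccnb1, Bub1, Aurkb, Pcna, Mcm2, Mcm5 and Rrm2), whose summed level was 1715, 1078 and 1715 CPM in H3K9M and 1889, 1943 and 1243 CPM in H3WT. The part of proliferation in the spread of Cbx5 was not tested.

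Per kilobase of the longest coding transcript, Cbx1 and Cbx3 had similar levels and Cbx5 a lower one. In CPM, by contrast, Cbx5 was above both in every library. The order thus depends on the transcript taken, which has 8803 bases for Cbx5, 1824 for Cbx1 and 1889 for Cbx3. Which transcripts these cells use was not tested. Over the 6 libraries these levels were 36.7 CPM per kb for Cbx1 (range 34.3 to 40.3), 35.1 for Cbx3 (26.7 to 39.8) and 22.2 for Cbx5 (17.3 to 26.6). The ranges of Cbx1 and Cbx3 overlapped, and that of Cbx5 lay just under both. As a share of the HP1 total per kilobase, which needs no scaling between libraries, Cbx5 made up 23.2% ± 1.4 in H3K9M and 23.9% ± 3.45 in H3WT (SD, n = 3 each). Cbx1 made up 39.3% ± 5.2 and 39.2% ± 3.53, and Cbx3 37.5% ± 3.83 and 36.9% ± 0.659. None of these shares differed beyond the spread between replicates (exact permutation tests, two-sided, p 1, 0.9 and 0.8 for Cbx1, Cbx3 and Cbx5, adjusted p 1 over the 6 shares tested). With 3 libraries against 3 such a test cannot give a p below 0.1.

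Trim28, whose product is also called KAP1, had the highest level of the 9 genes both in CPM and per kilobase (82.9 CPM per kb, above 94.6% of the tested genes with a length). It had 247.1, 223.5 and 273.6 CPM in H3K9M against 338, 270.6 and 261.9 CPM in H3WT. H3WT replicate 1 was above all other libraries and H3K9M replicate 3 below them, with the middle 4 intermixed. Its log2 fold change, -0.23, was the largest in size of the 9 (SE 0.15, 95% interval -0.56 to 0.11, adjusted p 0.563). Leaving out H3WT replicate 1 gave -0.10, leaving out H3K9M replicate 3 gave -0.15, and the offset for GC content and length gave -0.02. Trim28 has the transcript with the most GC of the 9 (59.6%, the others 38.9% to 49.7%). The offset takes in length as well, and the part of GC content in the difference was not tested.

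Atf7ip, the SETDB1 cofactor gene, had 121.3, 147.9 and 135.1 CPM in H3K9M against 140.7, 100.5 and 116.8 CPM in H3WT. The groups overlapped through H3WT replicate 1, which was second only to H3K9M replicate 3. Atf7ip had a log2 fold change of 0.18 (SE 0.15, 95% interval -0.17 to 0.53, adjusted p 0.685). The value was 0.31 without H3WT replicate 1, 0.11 without H3K9M replicate 3 and 0.08 without H3WT replicate 2, the lowest library. With the offset for GC content and length it came to 0.33 (unadjusted p 0.0486, adjusted p 0.565).

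Of the 3 HUSH core genes, Fam208a had the lowest level, Mphosph8 and Pphln1 had overlapping ranges, and each gene was highest in a different library. Mphosph8 had 42.4, 50.8 and 46.1 CPM in H3K9M against 34.6, 48.7 and 40.4 CPM in H3WT. Its lowest value was in H3WT replicate 1 and its highest in H3K9M replicate 3. Its log2 fold change was 0.17 (SE 0.17, 95% interval -0.21 to 0.55, adjusted p 0.726). Leaving out H3WT replicate 2 raised the value to 0.32, leaving out H3K9M replicate 3 or H3WT replicate 1 lowered it to 0.11 or 0.06, and the offset for GC content and length gave 0.03. Mphosph8 shares 384 exon bases with the noncoding gene Gm16973 on the opposite strand, which averaged 2.09 CPM in H3K9M and 1.52 in H3WT. With the counts of Gm16973 added, the value was 0.18.

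Fam208a, the gene of the scaffold TASOR, had 23, 33.9 and 33.3 CPM in H3K9M against 23.5, 34.1 and 30.2 CPM in H3WT. Replicate 1 was the lowest library in both groups, and the other 4 lay together. A log2 fold change of 0.04 resulted (SE 0.22, 95% interval -0.46 to 0.54, adjusted p 0.963). It was -0.10, -0.05 and -0.03 without H3WT replicate 1, H3K9M replicate 3 and H3K9M replicate 5, and 0.18 and 0.20 without H3WT replicate 2 and H3K9M replicate 1. Fam208a overlaps Ccdc66 on the opposite strand over 1763 exon bases in GENCODE M21. Ccdc66 averaged 30.6 ± 8.16 CPM in H3K9M against 27 ± 8.68 in H3WT, and the strand setting of the counting is not given in the sources used here, so the count of Fam208a is uncertain. With the counts of Ccdc66 added, Fam208a had a log2 fold change of 0.11 (adjusted p 0.866).

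Pphln1, the gene of periphilin, had 56, 46.6 and 44.7 CPM in H3K9M against 54.6, 42.5 and 52.5 CPM in H3WT. Replicate 1 was the highest library in both groups, the reverse of Fam208a. Its log2 fold change was -0.02 (SE 0.16, 95% interval -0.38 to 0.34, adjusted p 0.973). The value was -0.11 when H3WT replicate 2 was left out, -0.12 when H3K9M replicate 1 was, and between 0.02 and 0.05 when any of the other 4 was. Of the HUSH core total per kilobase, Mphosph8 made up 47.1% ± 3.18 in H3K9M and 43.9% ± 5.77 in H3WT, Pphln1 41.1% ± 5.42 and 44% ± 7.39, and Fam208a 11.8% ± 2.34 and 12.1% ± 1.69 (SD, n = 3 each). The groups overlapped for each share (exact permutation tests, two-sided, p 0.5, 0.7 and 0.9, adjusted p 1). The differences moved with single libraries. Leaving out H3WT replicate 2 took that of Mphosph8 from 3.19 to 6.38 percentage points and that of Pphln1 from -2.95 to -6.93. Leaving out H3WT replicate 1 instead took them to 0.759 and 0.374.

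**Figure D2:**
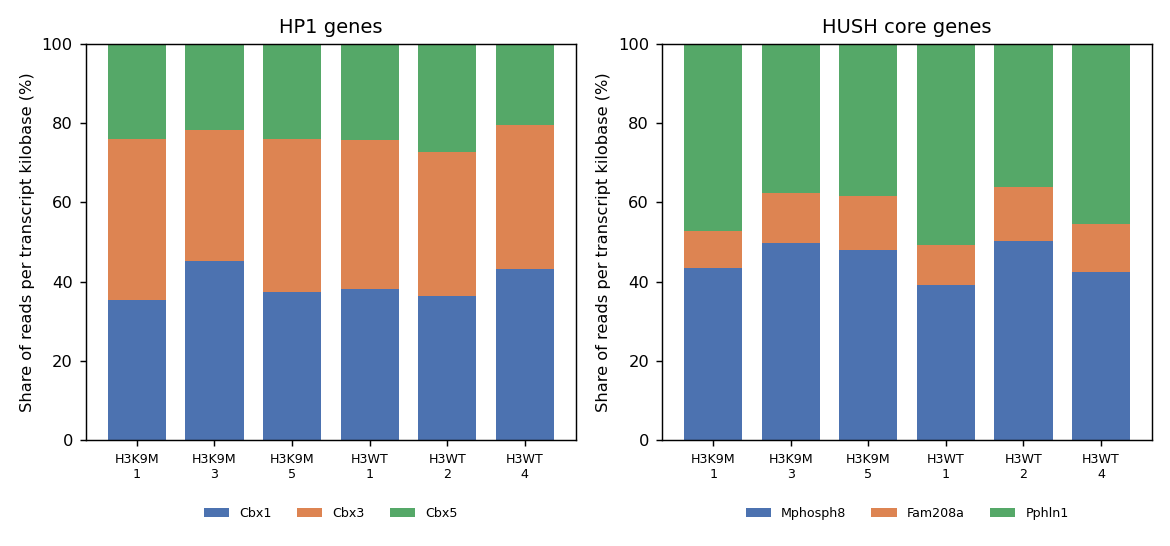
Share (%) of each gene in the summed reads per transcript kilobase of the HP1 genes (left) and of the HUSH core genes (right), 1 bar per library. Cbx5 stays between 20.4% and 27.2% of the HP1 total and Fam208a between 9.14% and 13.6% of the HUSH core total in all 6 libraries.

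Morc2a, whose product compacts chromatin at HUSH targets, had 65.3, 67.5 and 61.5 CPM in H3K9M against 77.9, 62.9 and 80.9 CPM in H3WT. H3WT replicates 1 and 4 were above all H3K9M libraries, and H3WT replicate 2 lay among them. For Morc2a the log2 fold change was -0.19 (SE 0.13, 95% interval -0.50 to 0.12, adjusted p 0.607). Leaving out H3WT replicate 2 gave -0.28 (unadjusted p 0.0558, adjusted p 0.304), leaving out H3WT replicate 4 gave -0.12, and the offset for GC content and length gave -0.07. The start of Morc2a shares 483 exon bases with the noncoding gene Tug1 on the opposite strand. As the strand setting of the counting is not given, the count of Morc2a is uncertain too. Tug1 averaged 84.1 ± 3.07 CPM in H3K9M against 90.6 ± 12.2 in H3WT, and within H3WT both genes were lowest in replicate 2. With the counts of Tug1 added, Morc2a had a log2 fold change of -0.14.

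**Figure D3:**
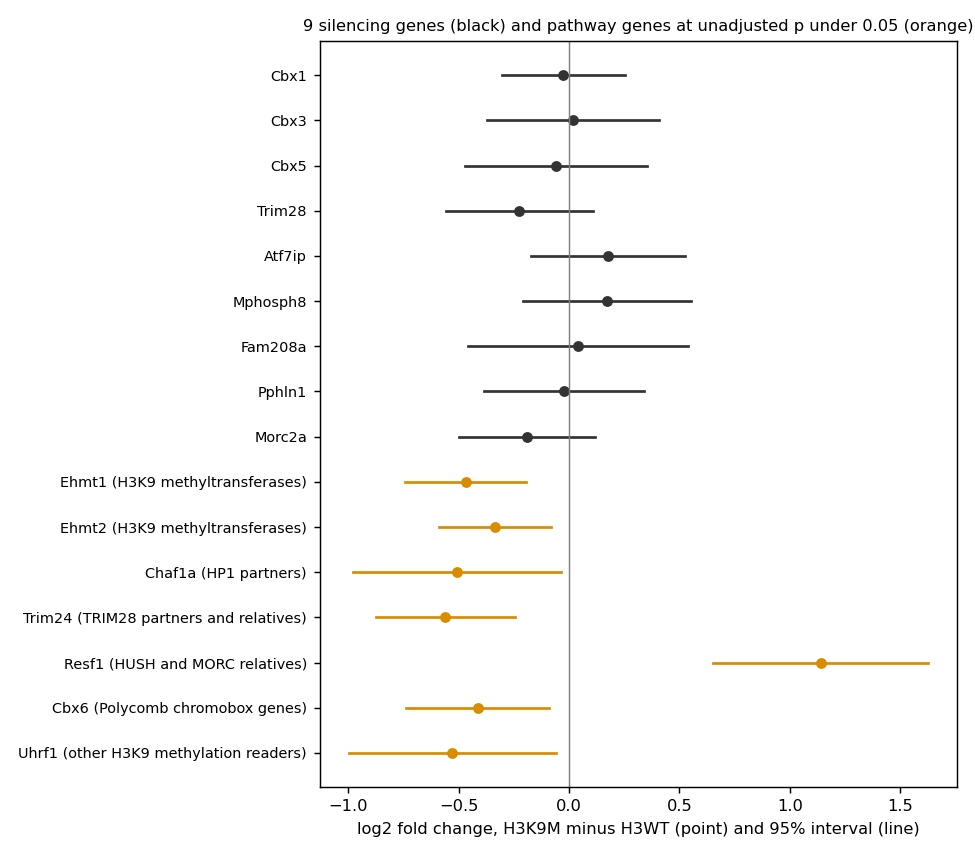
Log2 fold change of H3K9M minus H3WT (points) with its 95% interval (lines) for the 9 silencing genes (black) and for the genes of the pathway lists with an unadjusted p under 0.05 (orange). All 9 black intervals cross 0 and none reaches beyond 0.56 in size, and Resf1 lies farthest from 0 at 1.14.

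The 95% intervals bound what these libraries allow for each gene alone. None of the 9 intervals held a change of 2-fold in either direction, which is 1 on the log2 scale, and the widest bound was that of Trim28 at -0.56. Levels per kilobase, from high to low, ran from Trim28 through Cbx1, Cbx3, Cbx5, Atf7ip (15.8 CPM per kb), Mphosph8 (14.9), Pphln1 (13.8) and Morc2a (12.3) to Fam208a (3.91). The ranges over the 6 libraries overlapped between Cbx1 and Cbx3 and between each neighbouring pair from Cbx5 down to Morc2a. Trim28 lay above Cbx1 in every library, and Fam208a lay below Morc2a. Over all tested genes with a length the median was 8.49 CPM per kb.

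The members varied little between libraries. The SD of log2 CPM over the 6 libraries, groups pooled, was 0.0881 for Cbx1, smaller than in all but 2.17% of tested genes, and 0.265 for Fam208a, the largest of the 9. All 9 lay under the median of all tested genes (0.323), and their own median was 0.202. Genes with few reads vary more by counting error, and the part of read depth in this order was not tested.

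**Figure D4:**
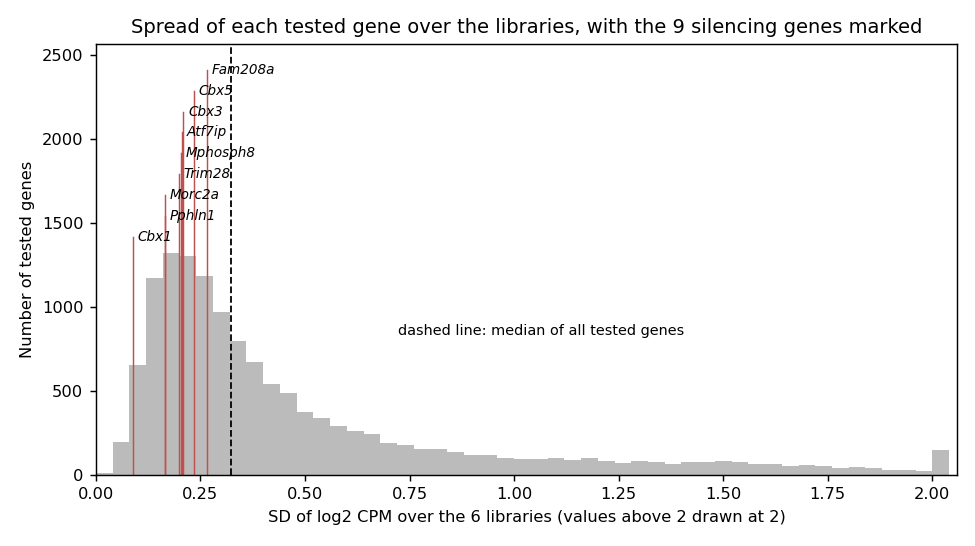
Number of tested genes (vertical axis) by the SD of log2 CPM over the 6 libraries (horizontal axis, values above 2 drawn at 2), with a red line at each of the 9 silencing genes. All 9 lines lie to the left of the dashed median of 0.323.

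What variation there was did not run in parallel across the 9 genes. In H3K9M replicate 3, Cbx3, Cbx5 and Trim28 had their lowest values (log2 deviations from the gene's own mean of -0.38, -0.34 and -0.26), while Atf7ip and Mphosph8 had their highest (0.23 and 0.22). In H3WT replicate 2, Cbx5 and Fam208a were at their highest (0.28 and 0.22) and Atf7ip and Pphln1 at their lowest (-0.33 and -0.21). The median deviation of the proliferation genes was -0.42 in H3K9M replicate 3 and 0.30 in H3WT replicate 2. That of the chondrocyte markers was -0.68 and 1.17 in these libraries, and their part in the members' spread was not tested.

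**Figure D5:**
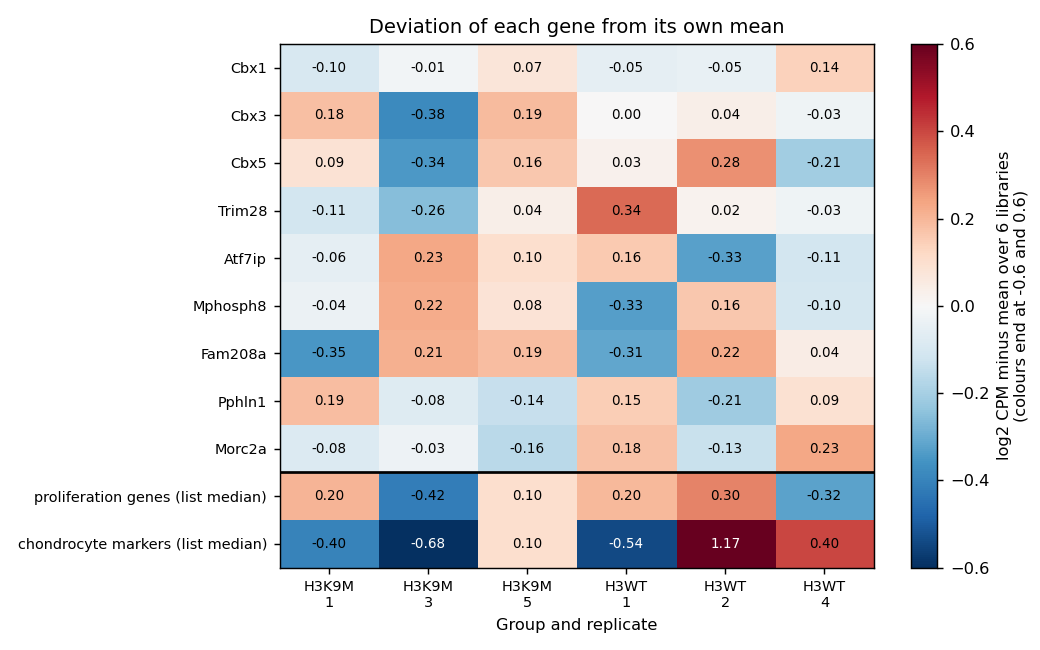
Log2 CPM of each of the 9 genes (rows) in each library (columns) minus the gene's mean over the 6 libraries, with the median deviation of the proliferation and chondrocyte lists below the line (colours end at -0.6 and 0.6). H3K9M replicate 3 holds both the lowest values of Cbx3, Cbx5 and Trim28 and the highest of Atf7ip and Mphosph8.

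The genes whose pattern over the 6 libraries was most like that of 1 member from each system were found by Pearson's r of log2 CPM, given as a description. For Trim28 these were Prpf8, a core splicing factor gene (r = 0.99), Gtpbp1 (0.99) and Hcfc1, a transcriptional coregulator gene (0.98). Prpf8 had 347, 315.2 and 374.4 CPM in H3K9M against 441.2, 382.7 and 366.7 in H3WT, with the same high H3WT replicate 1. For Cbx5 they were Gm6277, Slc19a3 and Ifrd2 (r = 0.998, 0.996 and 0.994), of which only Ifrd2 had more than 4 CPM in any library (23.9 to 45.7 CPM). For Mphosph8 they were Gm36556, Camk2b and Cnpy4 (r = 0.995, 0.992 and 0.99). Gm36556 and Camk2b had at most 2.66 and 4.3 CPM in any library, while Cnpy4 had 58.5 to 75.3 CPM. These are the highest values among 13761 genes over only 6 points.

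The position of the genes beside other starts was not used in choosing them. In GENCODE M21, 6 of the 9 members had a gene on the opposite strand starting within 1000 bases, against 26.4% of 12213 tested protein-coding genes, and for 4 of the 9 that gene was itself protein-coding, against 16.1%. Trim28 counts here only through a GENCODE start far upstream of the RefSeq start whose sequence is shown. Measured from the RefSeq starts, the counts were 6 of 9 against 26.9% of 9652 genes, with Atf7ip (180 bases from Gm44140) in place of Trim28, and 3 of 9 against 16.2% for protein-coding neighbours. Cbx3 (chromosome 6, 51470360 to 51483704, plus strand) started 466 bases from Hnrnpa2b1, and Cbx5 (chromosome 15, 103191544 to 103239816, minus strand) started 616 bases from Hnrnpa1. Both neighbours encode abundant RNA-binding proteins of the hnRNP family. Hnrnpa2b1 averaged 545.8 ± 43.2 CPM in H3K9M against 559.9 ± 73.1 in H3WT (log2 fold change -0.04, adjusted p 0.947, edgeR). Hnrnpa1 averaged 408.6 ± 32.8 and 415.8 ± 51.8 CPM (-0.03, adjusted p 0.963). Neither passed the adjusted threshold, which 0 of 13761 tested genes did. Their groups overlapped, and groups did not overlap in only 19.4% of tested genes.

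Pphln1 (chromosome 15, 93398350 to 93491510, plus strand) started 16 bases from Zcrb1, a gene of the minor spliceosome. Zcrb1 had 40.1, 40.9 and 42.5 CPM in H3K9M against 30.9, 31.3 and 34.5 CPM in H3WT. All its H3K9M libraries lay above all H3WT libraries, as in 10.7% of tested genes, while those of Pphln1 overlapped. Zcrb1 had a log2 fold change of 0.35 (SE 0.13, unadjusted p 0.029, adjusted p 0.354, edgeR). An unadjusted p under 0.05 was reached by 12.2% of tested genes, and the difference between Zcrb1 and Pphln1 was not tested. The other starts within 1000 bases were Slc27a5 beside the upstream GENCODE start of Trim28 (922 bases), which did not pass the filter on low counts, Gm4032 beside Mphosph8 (124 bases) and Tug1 beside Morc2a (482 bases).

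Other genes of the same silencing pathways were taken as lists and are described by counts. Of the 6 H3K9 methyltransferase genes 5 were lower and 1 higher in H3K9M, with a median log2 fold change of -0.24 against -0.003 over all tested genes. Leaving out either H3K9M replicate 3 or H3WT replicate 2, or using the offset for GC content and length, brought that median to -0.16. In this list 0 passed the adjusted threshold and 2 had an unadjusted p under 0.05 and lay lower in all H3K9M libraries. Of all tested genes 5.77% had such a p and were lower, and 8.68% lay lower in all H3K9M libraries. The 2 list genes were Ehmt1 and Ehmt2, the genes of GLP and G9a, which place the mono- and dimethyl marks on lysine 9 in euchromatin. Ehmt1 had 59.9, 65.7 and 56.1 CPM in H3K9M against 87.7, 84.3 and 79.5 in H3WT (a log2 fold change of -0.47 with an SE of 0.12, adjusted p 0.227), and Ehmt2 had 182.6 ± 3.68 against 230.4 ± 15.5 CPM (-0.34, SE 0.11, adjusted p 0.299). With the offset for GC content and length, Ehmt2 was at -0.09 (unadjusted p 0.527, edgeR) and Ehmt1 at -0.32 (0.0392). The unadjusted p of Ehmt2 was 0.0571 with library size alone, 0.0558 without H3K9M replicate 1 and 0.0556 without H3WT replicate 2. Setdb1, the methyltransferase that TRIM28 and HUSH work through, had 44.9 ± 5.96 against 50.6 ± 8.25 CPM (-0.17, adjusted p 0.729).

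Of 13 HP1 partner genes 5 were higher and 8 lower (median -0.10). Of these 1, Chaf1a, had an unadjusted p under 0.05, which 12.2% of all tested genes had. Chaf1a, a chromatin assembly subunit that binds HP1, averaged 58.4 ± 11 CPM in H3K9M against 83 ± 17.9 in H3WT, with groups that overlapped (log2 fold change -0.51, SE 0.21, adjusted p 0.382). With the offset for GC content and length Chaf1a was at -0.32 (unadjusted p 0.183), and its unadjusted p was 0.122, 0.114 and 0.115 without H3K9M replicate 3, H3WT replicate 1 and H3WT replicate 2. Of 11 TRIM28 partners and relatives 4 were higher and 7 lower (median -0.01). Here too 1, Trim24, had an unadjusted p under 0.05, against the same 12.2% of all tested genes. Trim24, a relative of Trim28, had 31.2, 29.3 and 30.3 CPM in H3K9M against 40.7, 47.1 and 46 CPM in H3WT (-0.56, SE 0.14, adjusted p 0.222 by edgeR and 0.0385 by DESeq2).

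Of 7 HUSH and MORC relatives 5 were tested, 3 higher and 2 lower (median 0.06, and -0.05 without H3WT replicate 2). An unadjusted p under 0.05 was reached by 12.2% of all tested genes and by 1 of these 5. This was Resf1, listed under its older symbol 2810474O19Rik, a retroelement silencing factor that acts with SETDB1. Resf1 had 81.9, 136.5 and 80.9 CPM in H3K9M against 46.1, 46.5 and 43.2 CPM in H3WT, so the groups did not overlap. Its log2 fold change was 1.14 (SE 0.21, 95% interval 0.65 to 1.63, unadjusted p 0.000626, adjusted p 0.17, edgeR), and 0.86 without H3K9M replicate 3. This was also the library with the most skeletal muscle transcripts, whose part was not tested. Resf1 passed the adjusted threshold with DESeq2 (0.000719) and when every gene with a count was tested (0.0248). Morc2b, the closest relative of Morc2a, had no read in any library.

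Chromobox genes whose products belong to Polycomb and read methylation of lysine 27 form the other branch of the family to which the HP1 genes belong. Of these Cbx2, Cbx6, Cbx7 and Cbx8 are described, and all 4 were lower in H3K9M, with a median log2 fold change of -0.32. In 2 of the 4 (Cbx2 and Cbx6) all H3K9M libraries lay below all H3WT libraries (8.68% of tested genes). Only 1, Cbx6, had an unadjusted p under 0.05 (12.2% of tested genes). Cbx6 had 109.9, 110.1 and 86 CPM in H3K9M against 145.6, 121.6 and 140.3 CPM in H3WT (-0.41, SE 0.14, adjusted p 0.312). With the offset for GC content and length Cbx6 was at -0.18 (unadjusted p 0.211) and the median of the 4 at -0.13, and no test of the list against the HP1 genes was made. Of the 3 other readers of methylated lysine 9, Cdyl, Cdyl2 and Uhrf1, all were lower (median -0.24), and Uhrf1, which links this mark to DNA methylation at replication, had 78.2 ± 14.6 against 112.9 ± 24.8 CPM (-0.53, SE 0.20, unadjusted p 0.0315, adjusted p 0.364; unadjusted p 0.0889 with the offset). Uhrf1 and Chaf1a were, within each group, lowest in the library where the summed proliferation genes were lowest, and the part of proliferation in their difference was not tested.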

How the data were processed

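Per the labels' protocols, libraries of polyadenylated RNA were made from the expanded cells with a Tecan kit. The table deposited by the authors holds raw read counts per gene symbol for 6 libraries. HISAT2, featureCounts, DESeq2 and the build mm10 are named, per the submitters' processing notes, with no versions or roles; annotation, strand setting and filters are not given in the sources used here. Each column name was the title of 1 sample, and every row named a gene.

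Counts were fitted in R 4.3.3 with edgeR 4.0.16 (filterByExpr defaults, TMM, robust quasi-likelihood test, genotype as the only term) over all 13761 tested genes, with Benjamini-Hochberg adjustment and a threshold of 0.05. The SE is the size of the log2 fold change divided by the square root of F, and intervals (95%) use the fit's degrees of freedom. Principal components used log2 CPM with a prior count of 2. Shares were compared by exact permutation over samples (scipy 1.17.1). Lists are described, not tested, and some listed genes are not reported here. Transcript length (longest coding transcript, GENCODE M21) was found for 27263 of 35976 symbols and 96.6% of tested genes; similar transcripts were found with blastn 2.17.0. The edgeR computation was tested on simulated counts.

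Named genes were all 9 members, pathway list genes with an unadjusted p under 0.05, genes starting within 1000 bases on the opposite strand, and the 3 tested genes most like Cbx5, Trim28 and Mphosph8. Setdb1, Myod1, Des, Acta1, Morc2b, the motifs and the 3 printed stretches were chosen after values or sequences were seen. Matching of older symbols to lengths was added after a first fit, which changed no call. The members and lists were chosen with earlier results of these data known. Alternatives were DESeq2 1.42.0, limma-voom (limma 3.58.1), DESeq2 size factors, library size alone, 2 other filters, a loess offset on GC content and length (span 0.5), no robust estimation, adding rows that share sequence with a member, undivided shares, and leaving out each library. Measuring neighbouring starts from RefSeq was added after seeing the data.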

Additional observations from a re-analysis of the deposited data

How the results depend on the processing

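No paired analysis was possible because the groups share only the replicate number 1. For the 9 genes, 15 alternatives each gave 135 log2 fold changes, of which 18 turned sign, and the lowest adjusted p was 0.304. The sign turned for Cbx1 (0.0329) and Pphln1 (0.0378) with library size alone, for Cbx3 with limma-voom (-0.0153) and with the offset for GC content and length (-0.263), and for Cbx5 with that offset (0.0221). The share of Fam208a in the HUSH core turned to 0.33 percentage points when genes sharing sequence were added. The number of genes past the adjusted threshold was 390 with DESeq2 and 36 with every gene with a count tested. With library size alone the median log2 fold change was 0.0378 over the 9 genes and 0.0534 over all tested genes. With the offset the median of the Polycomb genes was -0.1294. The causes were not tested.

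Leaving out each library gave 0 to 91 genes past the threshold. It gave log2 fold changes of -0.0598 to 0.0415 for Cbx1, -0.0678 to 0.1943 for Cbx3, -0.1674 to 0.0927 for Cbx5, -0.0954 to 0.2015 for Fam208a and -0.1245 to 0.0512 for Pphln1. Those of Trim28 and Morc2a stayed below 0 and those of Atf7ip and Mphosph8 above it. List medians ran from -0.0678 to 0.0438 (the 9 genes), -0.3267 to -0.1585 (methyltransferases), -0.1286 to -0.0383 (HP1 partners), -0.0725 to 0.0995 (TRIM28 partners), -0.0513 to 0.1325 (HUSH relatives), -0.4676 to -0.2376 (Polycomb genes) and -0.4254 to -0.1345 (other readers). Differences in share ran from -2.825 to 2.12 points for Cbx1, -0.955 to 2.745 for Cbx3, -2.516 to 0.926 for Cbx5, -1.133 to 1.097 for Fam208a, 0.759 to 6.379 for Mphosph8 and -6.926 to 0.374 for Pphln1.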
